A study of Mus musculus with 12 samples.

Results

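Besides PD-1, T cells and NK cells carry further receptors that restrain or promote their activity, and 9 genes for such receptors and their ligands were followed here in tumors of genetically diverse mice: Lag3, Havcr2, Lgals9, Tigit, Cd96, Cd226, Pvr, Nectin2 and Cd160. They were chosen by name, as the checkpoint receptors and ligands other than PD-1 and its ligands, and are 9 of the 26938 genes with at least 1 count. Their counts were summed by cluster and by tumor. Tumors were grown from MC38, a colon carcinoma line of C57BL/6J (B6) mice, placed under the skin of female mice 8 to 12 weeks old. Hosts were inbred B6 or F1 offspring of C57BL/6J and 1 of 7 Collaborative Cross strains (CC001/UncJ, CC002/UncJ, CC007/UncJ, CC036/UncJ, CC075/UncJ, CC079/TauUncJ and CC080/TauUncJ), a panel of recombinant inbred lines; each F1 host carried a B6 copy of every autosome. At a tumor size of 75 to 110 mm3 a mouse received 1 intraperitoneal dose of 200 µg of isotype antibody (2A3) or of an antibody to PD-1 (aPD1, 29F.1A12), and was killed 48 h later. Frozen tumors were sorted to 90% CD45+ and 10% CD45- cells, so the cell mixture was set partly by the sort. The study classed CC001, CC002 and CC075 hosts as responders and CC036, CC079 and CC080 hosts as non-responders from tumor growth in other mice; the sample labels name strains only, and B6 and CC007 were left without a class here.

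The 9 genes form 4 receptor systems. TIGIT, CD96 and CD226 are receptors on T and NK cells that share the ligands CD155 (Pvr) and CD112 (Nectin2), of which CD155 is the ligand of all 3; CD226 stimulates and TIGIT inhibits. LAG-3 binds MHC class II and several other ligands. TIM-3 (Havcr2) has galectin-9 (Lgals9) among its ligands, and is also known on myeloid and dendritic cells. CD160 binds HVEM (Tnfrsf14) and marks cytotoxic lymphocytes and NK cells.

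The 250 bases upstream of the RefSeq transcription start were searched on both strands for 4 motifs. The AP-1 motif (TGANTCA, 6.75% of 32851 promoters) occurred in Havcr2 and the GAS motif (TTCNNNGAA, 7.02%) in Cd96 and at 1 start of Cd160. Another start of Cd160 had no GAS match. The interferon-stimulated response element (ISRE), found in 2.98% of promoters, occurred in Lgals9 alone of the 6 members in the promoter table. The core of the RUNX motif (TGTGGT, 14.0% of promoters), bound by factors that act in T cells, occurred in Havcr2, Tigit, Cd96 and Cd160. The windows of Lgals9, which was highest in a cluster led by interferon-induced genes, and of Tigit and Cd96, which were found mainly in T and NK cells, are shown 5′ to 3′ from the RefSeq GRCm38.p6 sequence, cut to the bases upstream of both annotations used, with the ISRE (Lgals9) or RUNX motif (Tigit and Cd96) in capitals, on the minus strand, at chr11:78984947-78985174, chr16:43664185-43664434 and chr16:46120252-46120498 in that order. The GAS match of Cd96 is left in lower case. A match is a run of letters and was not tested for binding.
Lgals9: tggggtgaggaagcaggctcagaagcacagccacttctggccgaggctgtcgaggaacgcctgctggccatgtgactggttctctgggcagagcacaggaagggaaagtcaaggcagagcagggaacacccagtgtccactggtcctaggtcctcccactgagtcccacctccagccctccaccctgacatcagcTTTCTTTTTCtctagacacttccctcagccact
Tigit: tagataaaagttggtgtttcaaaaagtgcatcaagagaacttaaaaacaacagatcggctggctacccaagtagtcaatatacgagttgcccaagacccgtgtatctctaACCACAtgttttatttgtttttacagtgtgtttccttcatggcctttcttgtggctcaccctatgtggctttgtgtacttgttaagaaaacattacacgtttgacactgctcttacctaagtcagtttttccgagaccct
Cd96: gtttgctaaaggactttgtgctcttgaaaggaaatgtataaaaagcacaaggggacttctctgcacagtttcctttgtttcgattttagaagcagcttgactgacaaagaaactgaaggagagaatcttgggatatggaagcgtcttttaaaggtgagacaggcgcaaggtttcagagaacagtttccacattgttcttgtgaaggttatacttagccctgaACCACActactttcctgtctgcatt

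In GRCm38 the genes lie at chr6:124904361-124911705 (Lag3, minus strand), chr11:46454935-46481255 (Havcr2, plus), chr11:78962974-78984946 (Lgals9, minus), chr16:43648867-43664146 (Tigit, minus), chr16:46035657-46120251 (Cd96, minus), chr18:89176967-89272229 (Cd226, plus), chr7:19903578-19921160 (Pvr, minus), chr7:19716644-19750483 (Nectin2, minus) and chr3:96798763-96829351 (Cd160, minus), and all are protein coding. Tigit and Cd96 share a chromosome, as do Pvr and Nectin2.

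The count table held 93126 cells of 48 tumors, in 12 pooled libraries of 4 tumors each. Tumors had 53 to 3082 cells and 88816 to 17713491 UMIs (unique molecular identifiers, each 1 captured transcript), with a median of 3333.5 UMIs per cell. There were 10 isotype and 10 aPD1 tumors of responder hosts, 9 and 9 of non-responder hosts, and 10 of B6 and CC007. The tumor was the replicate. The deposited clusters carry numbers only and were named here from marker lists: 8 clusters (1, 3, 7, 8, 10, 12, 13 and 24, 11809 cells) were T or NK cells, and 9 clusters (55995 cells) were monocytes and macrophages. Single clusters were cDC1 (6), migratory dendritic cells (11), cDC2 (14), granulocytic cells (16), plasmacytoid dendritic cells (18) and fibroblasts (22). Clusters 20 (3411 cells), 23 and 25 were left unnamed. Clusters 3 and 13, both high in Cd8a, are the study's cytotoxic T lymphocytes (CTLs). Cluster 8, with Foxp3 at 246.8 CPM (counts scaled to a total of 1000000 per sum), was taken as regulatory T cells. Cluster 5 (12064 cells) was left unnamed, since its 10 leading genes held 1 B cell marker (Igkc) and 0 macrophage markers, although 8 of 8 macrophage markers reached 100 CPM in it. The study's text counts it with the macrophages. Hemoglobin transcripts led cluster 12 of the T cells and stood among the leading genes of cluster 5. Of all cells, 10176 (10.9%) carried a barcode sequence that also occurs in another library. No hashtag was used for both treatments, so hashtag and treatment cannot be told apart. One animal identifier stands on 2 CC080 tumors.

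Tigit, Cd96, Cd160 and Lag3 were found mainly in lymphocytes. T and NK clusters held 96.5% of the 2592 Cd96 UMIs, 96.2% of the 5545 Tigit UMIs, 94.4% of the 2169 Cd160 UMIs and 85.2% of the 7514 Lag3 UMIs. Cd226 was less so, with 72.3% of 6915 UMIs there, 11.0% in cDC2 and 8.20% in cDC1. Of 46389 Havcr2 UMIs, 66.1% came from macrophages and 9.08% from T and NK cells, although its level was alike in both (118.5 and 126.6 CPM). Macrophages were 60.1% of all cells (73.1% with cluster 5) and T and NK cells 12.7%. Of the ligands, macrophages held 74.4% of 56649 Lgals9 UMIs, 66.0% of 5992 Pvr UMIs and 54.9% of 1667 Nectin2 UMIs, so the shares of Pvr and Nectin2 lay near the share of cells. Cluster 5 held a further 12.9% of the Havcr2, 10.9% of the Lgals9, 7.74% of the Pvr and 10.1% of the Nectin2 UMIs. Unnamed cluster 20 held 4.62% of the Pvr UMIs. These are levels in summed cells, given as a description with no test, and UMIs of 5′ libraries were not compared between genes.

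**Figure D1:**
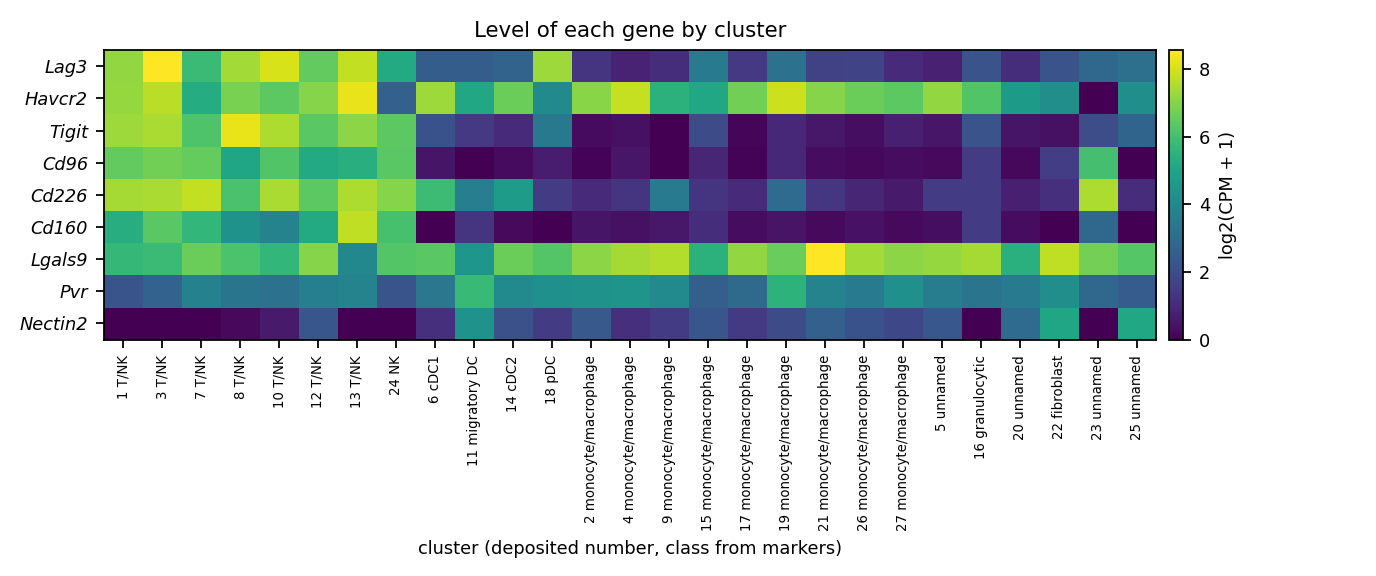
Level of the 9 genes (rows) in the 27 clusters (columns, grouped by the name of the cluster), as log2(CPM + 1) of the counts summed over all cells of a cluster. Tigit, Cd96, Cd160 and Lag3 are high in the T and NK columns, Havcr2 spans T cells, macrophages and cDC1, and Lgals9 is measured in every cluster, with its highest level in macrophage cluster 21.

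Within the lymphocytes each receptor had its own distribution. Lag3 was highest in CTL cluster 3 (354.1 ± 157.2 CPM, SD over 31 tumors with at least 20 such cells), followed by the CD4 cluster 10 (315.8 ± 132.9, n = 7) and CTL cluster 13 (218.4 ± 81.2, n = 9). Plasmacytoid dendritic cells of cluster 18 also held Lag3, at 151.8 ± 46.7 CPM (n = 6). Tigit was highest in regulatory T cells (341.9 ± 157.3, n = 34), above cluster 10 (190.4 ± 68.6, n = 7) and cluster 3 (164.7 ± 62.0, n = 31). Cd160 peaked in cluster 13, the CTL cluster led by Il2, Ifng and Xcl1, at 197.6 ± 101.2 CPM (n = 9), against 77.4 ± 37.7 (n = 31) in cluster 3 and 69.8 ± 48.2 (n = 27) in NK cells. Cd226 was at 212.8 ± 67.4 CPM (n = 40) in cluster 7, led by Lef1 and Tcf7, and at 176.8 ± 70.3 (n = 31) in CTL cluster 3, within the spread of each other. Cluster 7 was not its peak, since the highest mean of Cd226 in a ranked cluster was 223.5 CPM. Cd96 had similar levels in cluster 3 (113.5 ± 37.4, n = 31), cluster 7 (94.2 ± 48.1, n = 40) and NK cells (77.7 ± 34.3, n = 27).

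Havcr2, by contrast, was near 0 in NK cells (5.1 CPM) and high in CTL cluster 13 (292.5 ± 104.1, n = 9), in macrophage clusters 19 (245.6 ± 89.5, n = 45) and 4 (233.1 ± 64.3, n = 44), and in CTL cluster 3 (194.0 ± 72.7, n = 31). It reached 157.8 CPM in the summed cDC1.

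Among the ligands, Lgals9 stood highest in cluster 21, a macrophage cluster whose leading genes are Ifit3, Rsad2, Cmpk2 and other interferon-induced transcripts, at 367.9 ± 63.9 CPM (n = 45). Fibroblasts came next (190.4 ± 41.6, n = 9), and CTL cluster 13 was the lowest at 14.8 CPM summed. Pvr was highest in migratory dendritic cells (53.8 ± 28.0, n = 39) and macrophage cluster 19 (46.1 ± 33.4, n = 45). Nectin2 was low throughout, with means over 20 CPM only in fibroblasts (31.7 ± 15.4, n = 9) and migratory dendritic cells (20.7 ± 15.6, n = 39) of the 25 clusters that could be ranked over tumors; the summed cells of unnamed cluster 25, led by keratin transcripts, held 33.2 CPM from 29 UMIs. The migratory dendritic cells, high in both, held 5.89% of all Pvr and 8.04% of all Nectin2 UMIs.

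In most of these orders neighboring clusters did not stand apart. When the 25 clusters were ranked by mean level, 1 of 24 neighbor steps exceeded the larger SD of the pair for Lag3 (after rank 9), Tigit and Cd96 (after rank 8), Nectin2 (after rank 2), and Lgals9 and Cd160 (after rank 1). No step did for Havcr2, Cd226 or Pvr. Cluster 21 for Lgals9 and cluster 13 for Cd160 were therefore single clusters set off from the next by more than their spread.

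Over the 27 clusters, and among 7374 genes of at least 50 CPM in some cluster, the gene most like Lag3 in log2(CPM + 1) was Tigit (Pearson's r = 0.94), then Cd8b1 (0.93) and Tmem163 (0.93). The nearest to Tigit were Gm19585 (0.96), Nkg7 (0.96) and Klrc1 (0.95), to Cd160 Xcl1 (0.97), Klrc1 (0.97) and Crtam (0.96), to Cd96 Sh2d1a (0.98), Trbc1 (0.98) and Gm29243 (0.98), and to Cd226 Camk4 (0.92), Tbx21 (0.91) and Xlr4b (0.91). Havcr2 had no such close neighbor: Api5 reached 0.75, Entpd1 0.74 and Hacd2 0.71. Lgals9 was nearest to Xaf1 (0.82), Lpar6 (0.81) and Rnf213 (0.80), of which Xaf1 and Rnf213 are interferon-induced. Pvr was nearest to Flrt3 (0.78), Dennd5a (0.74) and Etv6 (0.73), and Nectin2 to Cnn3 (0.87), Rras (0.87) and Jup (0.83). The clusters share libraries and depth, so these values describe likeness only.

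At a depth of 1000 UMIs per cell, few single cells showed several receptors at once. After each cell was thinned to 1000 UMIs, Lag3 was detected in 31.2% of cluster 3 cells and in 0.125% of macrophage cluster 2, taken as the background (58.1% and 0.654% before thinning). Tigit was detected in 29.7% of cluster 8, Cd160 in 17.6% of cluster 13 and Cd226 in 18.5% of cluster 7, against 0.0108%, 0.0379% and 0.108% of cluster 2. Before thinning these were 44.2%, 34.5% and 26.7%, against 0.0844%, 0.179% and 0.443%. Havcr2 was detected in 23.0% of cluster 13 and 0.238% of NK cells (42.2% and 1.05% before thinning), and Pvr in 5.29% of cluster 11 and 0.317% of NK cells (17.1% and 0.805%). For Lgals9, with 31.4% in cluster 21 (66.5% before thinning), no cluster lacked the gene, and cluster 13 had the lowest level, at 1.52% (4.12%). Of 2600 thinned cells of cluster 3, 42.6% had no UMI of Lag3, Havcr2, Tigit, Cd96 or Cd160, 14.5% had 2 of the 5 and 3.46% had at least 3. At least 2 of Lag3, Havcr2 and Tigit were seen in 11.9% of cluster 3, 10.1% of regulatory T cells, 7.95% of cluster 13, 0.317% of NK cells and 0.0162% of macrophage cluster 2. These are shares of cells with a UMI at this depth, not of cells expressing a gene.

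The first comparison between hosts asked whether responder strains differed from non-responder strains, over both treatments. In all T and NK cells, Havcr2 was higher in responder hosts by 0.76 ± 0.18 (SE) on the log2 scale (edgeR quasi-likelihood test, adjusted p = 0.011) and Cd160 by 0.72 ± 0.20 (adjusted p = 0.035). These were 2 of the 7 members tested there, where 2.27% of all 7186 genes passed and 0.96% passed as higher in responders; the members' median log2 difference was 0.27, against 0.00 for all genes. Lag3 (0.60 ± 0.20, adjusted p = 0.103) and Lgals9 (-0.36 ± 0.13, adjusted p = 0.151) did not pass, nor did Cd96, Cd226 and Tigit.

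The values behind the 2 calls overlapped. Havcr2 in T and NK cells ran from 57.3 to 253.7 CPM (median 138.3) in the responder isotype tumors and from 116.4 to 184.1 (median 146.7) in the responder aPD1 tumors. In non-responder hosts it ran from 13.9 to 151.3 (median 83.3) with isotype and from 52.9 to 150.9 (median 90.7) with aPD1. Cd160 ran from 31.7 to 100 (median 76.3) and from 36.0 to 126.6 (median 72.4) in responders, and from 21.7 to 79.0 (median 42.5) and from 10.6 to 141.5 (median 37.3) in non-responders. For both genes each responder median lay above each non-responder median, and the ranges of the classes overlapped. Lag3 followed the same order of medians, with 215.9 and 209.4 CPM in responder isotype and aPD1 tumors and 115.9 and 138.8 in the non-responder tumors.

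The makeup of the T and NK cells moved with the class. CTLs, the cells highest in Havcr2 and Cd160 among them, made up a median of 49.5% (11.9 to 52.5) of T and NK cells in responder isotype tumors and 34.9% (20.1 to 54.0) in responder aPD1 tumors, against 17.2% (2.13 to 29.2) and 11.5% (4.26 to 20.5) in non-responders. The CTL fit holds 29 of the 38 classed tumors, with 1 of the 6 CC079 tumors, so the values in CTLs come from only some of the tumors above. In all T and NK cells of the same 29 tumors, a setting chosen after seeing the data, Havcr2 was at 0.61 ± 0.16 (adjusted p = 0.063) and Cd160 at 0.85 ± 0.23 (0.065), and 0 members passed. Within CTLs none of the 7 members tested passed (0.521% of 4418 genes did), with 0 also at an unadjusted p under 0.05 and 0 in DESeq2. Havcr2 there differed by 0.06 ± 0.19 (adjusted p = 0.98), Cd160 by 0.44 ± 0.29 (0.71), Lag3 by 0.29 ± 0.23 (0.77) and Tigit by 0.28 ± 0.22 (0.76). With clusters 3 and 13 left out of the T and NK cells, Cd160 fell to 0.34 (adjusted p = 0.81) and Havcr2 stood at 0.71 (adjusted p = 0.076), so neither passed. Summed over 8 markers, macrophage transcripts in the T and NK cells had medians of 548.5 and 595.6 CPM in responder isotype and aPD1 tumors and 551.5 and 1486 in the non-responder tumors; their part in the result was not tested.

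The class calls rest on 3 strains each. The shares of all genes given above are those of the main fits. Member counts in other settings were not set beside the share of all genes passing there. When counts were summed to 1 value per strain, no member passed (adjusted p = 0.72 for Havcr2 and 0.92 for Cd160). With the 12 pools as a block, 4 passed, since Lag3 (0.84 ± 0.19, adjusted p = 0.0077) and Lgals9 (-0.44 ± 0.10, adjusted p = 0.0079) were added. Leaving out pool 2, 5 or 9, or CC002, ended both calls (0 passed), leaving out pool 3 or 10, CC001, CC080 or the tumors of the shared animal identifier left Havcr2 alone (1 passed), and leaving out CC079 left Cd160 alone. Without cluster 12, led by hemoglobin transcripts, 1 member passed. Without CC036 Cd160 was lost (0.57, adjusted p = 0.16) while Havcr2, Lag3 and Lgals9 passed, and without pool 8 the count was 4. Havcr2 passed in pools 1 to 6 alone (0.84, adjusted p = 0.0047) and Cd160 did not (0.73, 0.12); in pools 7 to 12 alone neither did (0.70 and 0.75, 0.30 and 0.14).

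**Figure D2:**
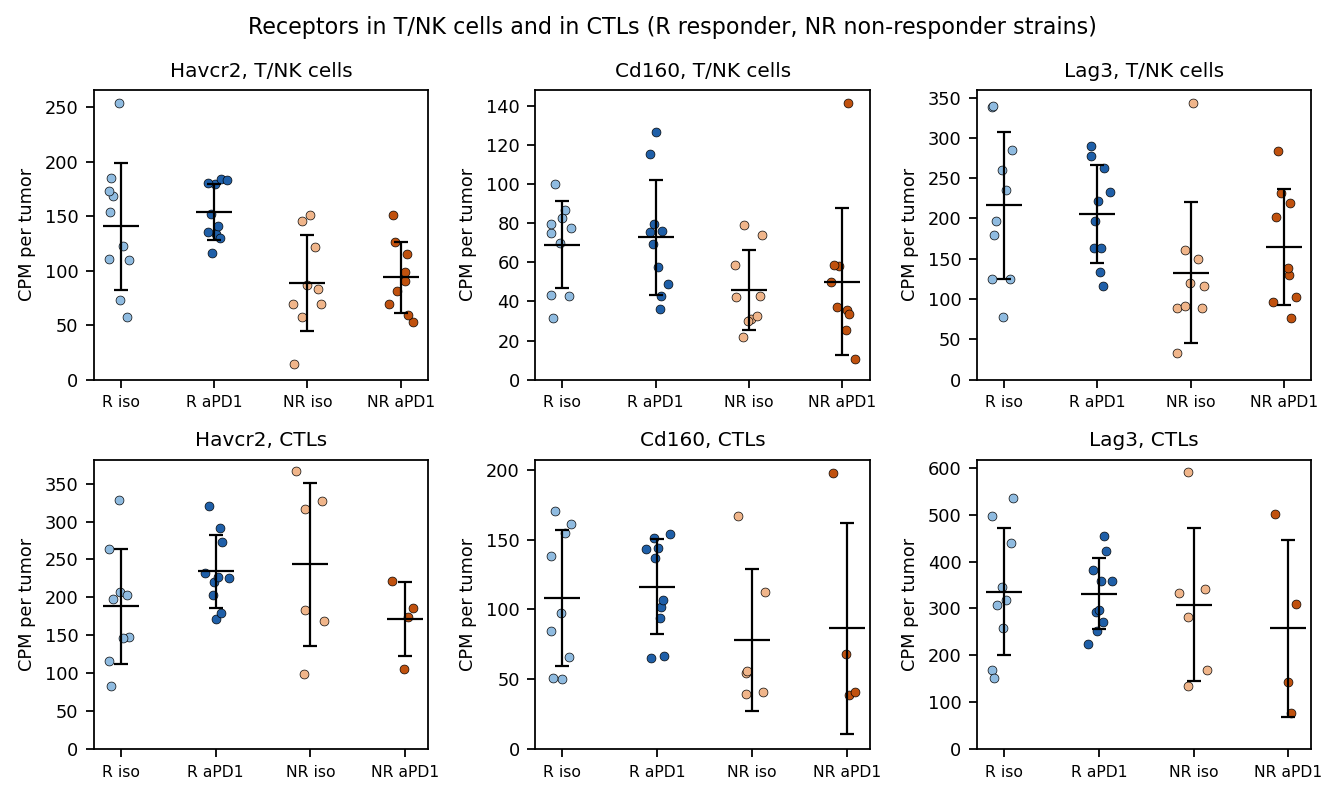
Level (CPM) of Havcr2, Cd160 and Lag3 in each tumor, in all T and NK cells (top) and in CTLs alone (bottom); columns are responder (R) isotype and aPD1 and non-responder (NR) isotype and aPD1 tumors, points are tumors and bars the mean ± SD. The responder tumors sit higher in the top panels for Havcr2 and Cd160 with overlap, while in CTLs Havcr2 has medians of 197.5 and 226.1 in responders and 249.6 and 180.1 in non-responders.

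In the other cell groups no member passed by class. None was called of 9 in all cells (3.2% of 13503 genes did), 5 in regulatory T cells (0.124%), 6 in macrophages (5.94%), 3 in cDC1 (0.475%) or 1 in migratory dendritic cells (0.522%). Over these 5 comparisons 2 members had an unadjusted p under 0.05, 1 in all cells (1890 of 13503 genes) and 1 in macrophages (2232 of 11598), and DESeq2 called 1, Cd160 in all cells. With the 4 groups of consecutive library identifiers (pools 1 to 3, 4 to 6, 7 to 9 and 10 to 12) as a term, Cd160 in all cells and Havcr2 in macrophages passed. Havcr2 in macrophages was 0.18 ± 0.07 lower in responders on the log2 scale (adjusted p = 0.151), opposite in sign to its T cell value. Of the 23 other genes of these pathways, Pdcd1 (PD-1) was higher in responder T and NK cells by 0.91 ± 0.19 (adjusted p = 0.0034), 1 of 11 tested where 2.27% of all genes passed. It did not pass with counts per strain (0.94, adjusted p = 0.68), in pools 1 to 6 alone (0.95, 0.064), in pools 7 to 12 alone (0.85, 0.098), in the tumors with at least 20 CTLs (0.67, 0.068) or without clusters 3 and 13 (0.52, 0.34). Cadm1, a ligand of the T cell receptor CRTAM, was higher in responder cDC1 by 1.20 ± 0.20 (adjusted p = 0.0022, 1 of 8) and in all cells by 0.78 (adjusted p = 0.049, 1 of 21). Of all genes 0.475% passed in cDC1 and 3.2% in all cells, so the count in all cells is near that of all genes. The call in all cells was lost in 16 of 30 alternatives, among them counts per strain (0.71, adjusted p = 1.0), no filter on low counts (0.77, 0.080) and pools 1 to 6 and 7 to 12 each alone (0.83 and 0.80, 0.13 and 0.30), and that in cDC1 in 2 of 29, with counts per strain (1.26, 0.057) and in pools 7 to 12 alone (1.07, 0.18). Ceacam1, a ligand of TIM-3, was lower in responder macrophages by 0.52 on the log2 scale (value -0.52 ± 0.15, adjusted p = 0.026), 1 of 16 tested where 5.94% of all genes passed, so the count is near that of all genes. The call was lost in 13 of 34 alternatives, among them counts per strain (-0.44, 0.94) and pools 7 to 12 alone (-0.21, 0.53). None of 10 passed in CTLs, 6 in regulatory T cells or 7 in migratory dendritic cells.

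A further comparison asked whether the 8 host strains differed, with an F test over all strains and treatments. In T and NK cells 7 of 8 members tested varied among strains, where 22.9% of 9704 genes did: Cd96 (range of the strain values 1.21 on the log2 scale, adjusted p = 0.00059), Lag3 (1.53, 0.0046), Lgals9 (0.90, 0.0057), Cd160 (1.61, 0.0096), Tigit (0.98, 0.0125), Havcr2 (1.26, 0.0193) and Cd226 (0.95, 0.0211), all from 1 edgeR F test over strains. Pvr did not pass (adjusted p = 0.065). The median range was 1.23 for members and 0.74 for all genes. The 22.9% belongs to this fit, and the member counts in the other settings have no such share beside them. With the pools as a block 4 passed (Cd160, Cd96, Havcr2 and Lag3), and without clusters 3 and 13 only Lgals9 and Tigit did, while the range was 2.01 for Cd160 (adjusted p = 0.073), 1.00 for Havcr2 (0.062), 0.97 for Cd96 (0.10), 0.90 for Lag3 (0.39) and 0.80 for Cd226 (0.12). With pools 1 to 6 or 7 to 12 as a term 3 passed (Cd160, Cd96 and Lag3). Without pool 2 or pool 9 the count was 3, and without CC079 it was 4, with the range of Cd96 at 0.63 (adjusted p = 0.016). The 8 summed macrophage markers also moved with strain in the T and NK cells, with a median of 2145 CPM (551.5 to 4102) in CC079 against medians of 350.2 to 799.1 in the other strains; their part in these values was not tested. Without CC075 the range of Cd226 was 0.52 (adjusted p = 0.60). Leaving out CC001 ended the Cd96 call, CC002 that of Lag3, pool 9 or CC036 that of Cd160 and pool 2 or CC079 that of Lgals9. Tigit was lost without pool 1, 2, 8 or 9, B6 or CC001, Havcr2 without pool 1, 2, 3, 5 or 9, CC075 or CC079, and Cd226 without pool 2, 9, 10 or 11, CC075 or CC079.

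Cd96, the receptor that competes for CD155, had the lowest p of the members among strains within CTLs. Its range over strains in CTLs was 1.94 on the log2 scale (adjusted p = 0.0030, with 9.25% of 6392 genes passing), and of 28 alternative settings only the one without CC001 ended the call (adjusted p = 0.11). The range fell to 0.98 without CC079 (adjusted p = 0.0034), 1.12 without pool 5 (0.0064) and 1.03 with at least 50 cells (0.043). CC080 CTLs had 102.4 to 174.7 CPM (median 136.5, n = 4) and CC001 CTLs 97.7 to 172.9 (median 125.5, n = 8). CC002 CTLs, also of the responder class, had 42.4 to 90.4 (median 69.0, n = 6). No CC002 tumor reached the lowest CC001 or CC080 tumor, so 2 responder strains lay apart and the highest medians came from 1 strain of each class. Medians of CC007, CC036, B6 and CC075 fell between them, at 84.1, 83.0, 81.4 and 71.0 CPM. CC079 had 1 tumor with at least 20 CTLs, at 37.4 CPM from 2 UMIs. In all T and NK cells CC001 was again high (77.3 to 119.9, median 97.3, n = 8) and CC079 low (17.6 to 67.5, median 48.6, n = 6), while CC080 lay between them (59.0 to 94.7, median 76.2, n = 6).

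Lag3 had a different order. In CTLs its medians were 447.2 CPM in CC002, 441.2 in B6, 438.1 in CC007, 358.1 in CC075, 340.7 in CC036, 261.9 in CC001, 168.5 in the CC079 tumor and 139.0 in CC080 (range 1.58 on the log2 scale, adjusted p = 0.043). This order is over all pools. Within pools 7 to 12 the medians were 521.1 in B6, 469.6 in CC007, 447.2 in CC002, 358.1 in CC075, 340.7 in CC036 and 211.8 in CC001. Within pools 1 to 6 they were 427.8 in CC002, 272.7 in CC001, 236.3 in CC007, 182.4 in B6, 168.5 in the CC079 tumor and 139.0 in CC080. The Lag3 call in CTLs was lost in 17 of 28 alternatives, namely without pool 1, 2, 3, 5, 9, 10, 11 or 12 or CC001, CC002, CC075 or CC080 (adjusted p = 0.051 to 0.21), without the shared animal, without tumors of under 500 cells, with at least 50 cells, with pools 1 to 6 or 7 to 12 as a term, and with the 4 groups of library identifiers as a term. Its values also differed by library: the B6 CTLs of pool 6 held 177.3 and 187.4 CPM, and those of pools 7 and 8 held 441.2, 521.1 and 532.2. In T and NK cells the strain medians of Lag3 ran from 281.0 CPM in CC002 (197.0 to 340.1, n = 6) to 94.0 in CC080 (33.0 to 161.3, n = 6), 2 groups with no overlap. The CTL share of T and NK cells moved with strain as well, with medians of 44.4% in CC075, 42.2% in CC002, 40.1% in CC001, 36.3% in B6, 20.6% in CC007, 18.8% in CC036, 14.9% in CC080 and 6.81% in CC079. Tigit had medians in T and NK cells of 214.7 CPM in CC001, 195.4 in CC079, 194.0 in CC080 and 188.8 in CC002, and was lowest in B6 at 105.2. Cluster 8, the regulatory T cells highest in Tigit, made up a median of 51.1% of T and NK cells in CC079, 27.8% in CC080 and 21.3% in CC001. Its median was 19.8% in CC002, 12.7% in CC036, 8.74% in CC007, 7.97% in B6 and 7.83% in CC075. The part of these shares in the Tigit and Lag3 levels was not tested.

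**Figure D3:**
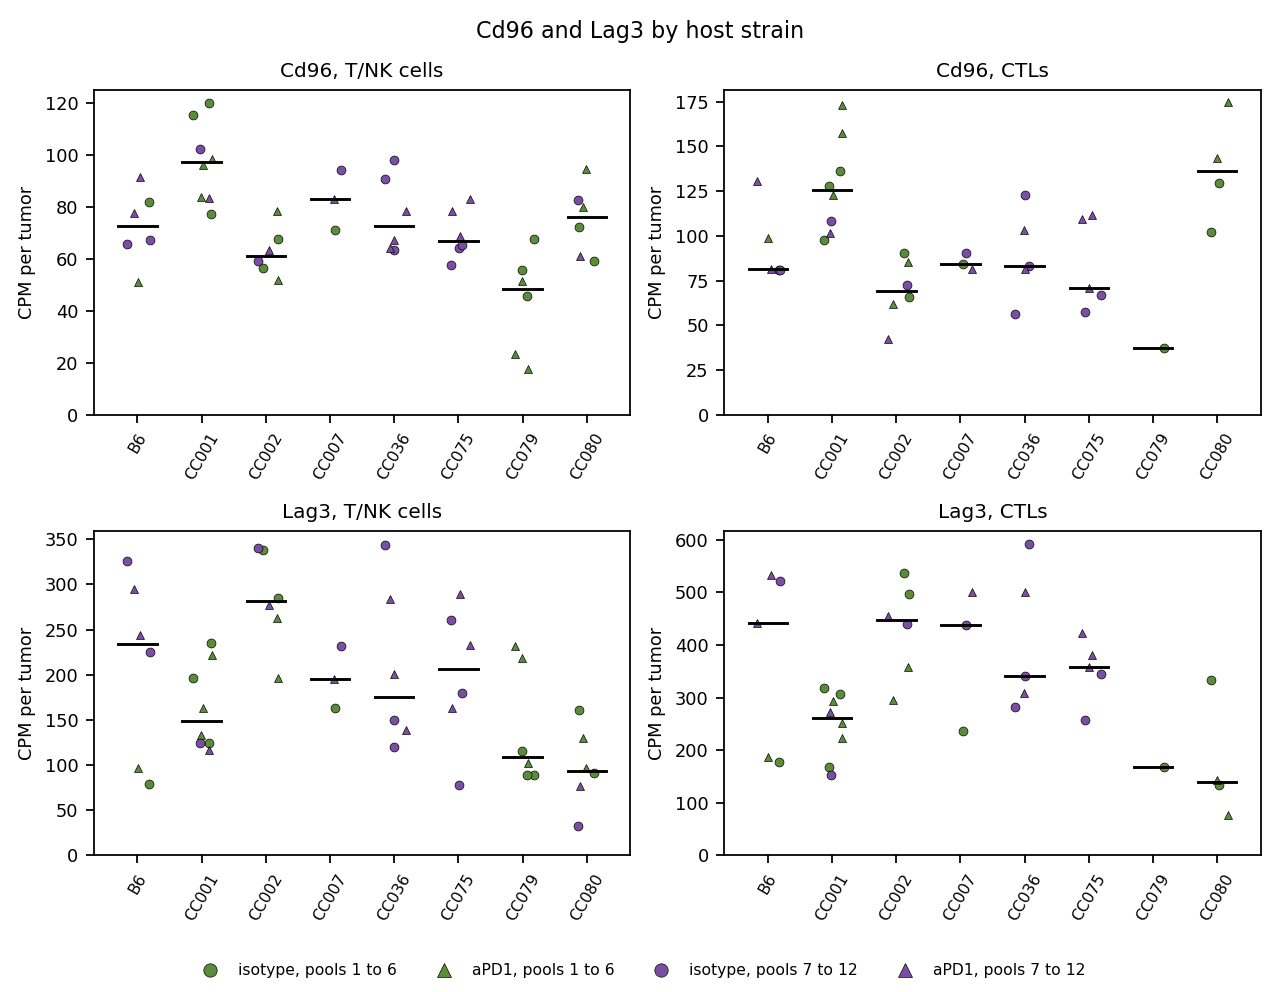
Level (CPM) of Cd96 and Lag3 in T and NK cells and in CTLs for each tumor by host strain; circles are isotype and triangles aPD1 tumors, the color separates pools 1 to 6 from pools 7 to 12, and the line is the strain median. Cd96 in CTLs is highest in CC080 and CC001 and low in CC002, while the median of Lag3 over all pools is there highest in CC002 and lowest in CC080; within pools 7 to 12 alone the Lag3 median is highest in B6 (521.1 CPM).

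Reads of all hosts were aligned to 1 B6 reference, while CC haplotypes differ from it; the part of mapping in the strain differences was not tested. The labels name no batch. The study's methods state that a correction for the processing date of the libraries was made for clustering, and they give no dates. The library identifiers form 4 groups of consecutive numbers, pools 1 to 3, 4 to 6, 7 to 9 and 10 to 12, with the widest gap after pool 6, and the split into pools 1 to 6 and 7 to 12 used here is a choice made from that gap. CC036 and CC075 occur only in pools 7 to 12 and CC079 only in pools 1 to 6, so by this split those strains cannot be told apart from the pools they came in, while each strain spans at least 2 of the 4 groups. In CTLs the 4 CC080 tumors with enough cells all come from pools 1 to 6, and the CC079 tumor comes from 1 group. With the 4 groups as a term, a setting chosen after seeing the data, the class count in T and NK cells was 4 (Cd160, Havcr2, Lag3 and Lgals9) and the strain count 4 (Cd160, Cd96, Havcr2 and Lag3). Cd96 still passed in CTLs (1.90, adjusted p = 0.028), and Lag3 did not (1.58, 0.10).

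In macrophages 3 of 6 members varied among strains, where 49.7% of 12743 genes did, so this share was close to that of all genes. Lgals9 medians ran from 189.8 CPM in CC079 (141.5 to 226.6, n = 6) to 113.9 in CC075 (97.7 to 178.2, n = 6), with a range of 0.58 on the log2 scale (adjusted p = 0.0026). Pvr ran the other way, from 19.8 in CC036 (13.4 to 26.7, n = 6) to 12.2 in CC007 (n = 4) and 12.6 in CC001 (n = 8), with a range of 0.83 (adjusted p = 0.0101). Cluster 19, high in Pvr, made up medians of 8.55% of macrophages in CC036, 6.78% in CC079, 6.01% in CC001 and 5.30% in CC075. In B6, CC002, CC080 and CC007 it was 4.78%, 4.77%, 3.87% and 3.75% (n = 3 in CC007). Cluster 21, highest in Lgals9, made up 11.1% in CC080, 8.67% in CC007, 8.00% in CC079 and 7.09% in B6. In CC075, CC001, CC036 and CC002 it was 6.40%, 6.22%, 5.74% and 4.55%. The part of these shares was not tested. Lag3, at medians of 1.07 to 2.76 CPM, had a range of 1.62 (adjusted p = 0.0247), and 11 summed T and NK markers had strain medians of 6.34 to 14.5 CPM in the same macrophages; their part was not tested. All 3 calls were lost with pools 1 to 6 or 7 to 12 as a term (adjusted p = 0.20, 0.088 and 0.17) and with the pools as a block (0.18, 0.49 and 0.18), and with the 4 identifier groups as a term Lgals9 alone passed (0.55, adjusted p = 0.032). Within the 5 strains present in pools of both sets, the Lgals9 median was lower in pools 7 to 12 in 5 of 5 and the Pvr median higher in 4 of 5. Without pool 8 only Lgals9 of the 3 passed. The Lgals9 call was lost without pool 9 and that of Lag3 without pool 1, 2 or 5 or CC079, and the range of Pvr was 1.25 without pool 7. In cluster 2 alone Lag3 did not pass (1.68, adjusted p = 0.22), and in cluster 26 alone neither Lag3 (1.38, 0.30) nor Pvr (0.84, 0.20) did.

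**Figure D4:**
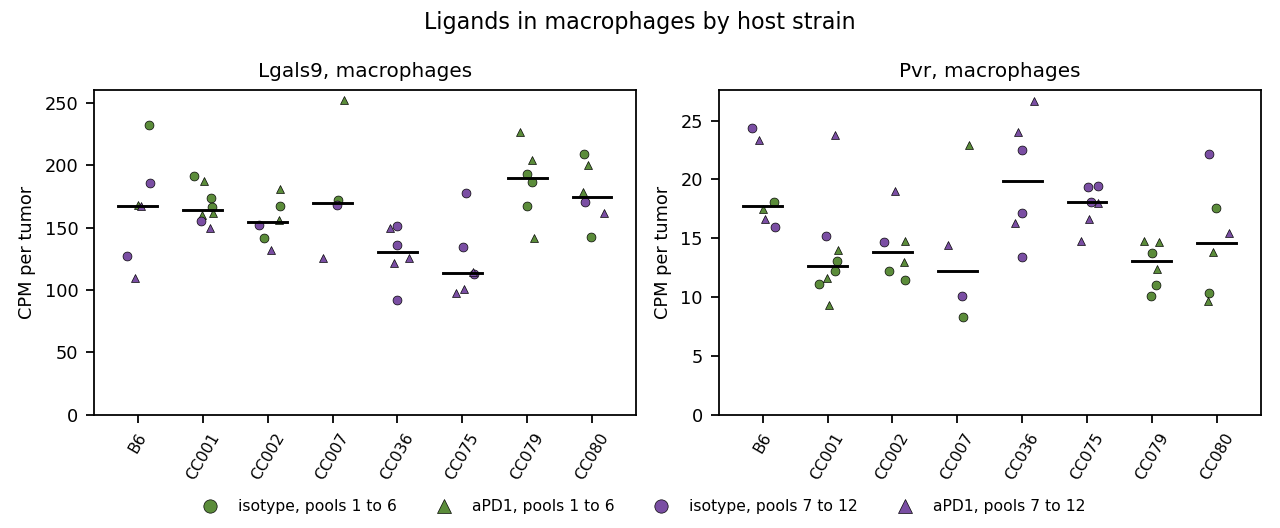
Level (CPM) of Lgals9 and Pvr in macrophages for each tumor by host strain, with the same symbols, colors and median lines as for T cells. The strains of pools 7 to 12 alone, CC036 and CC075, are low in Lgals9 and high in Pvr, and in strains of both sets the pools 7 to 12 have the lower Lgals9 median in 5 of 5 and the higher Pvr median in 4 of 5.

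Summed over all cells, 6 of 9 members varied among strains (Cd160, Cd96, Lag3, Lgals9, Nectin2 and Pvr, with 43.9% of 15137 genes), and 2 of them, Cd160 and Lag3, with the pools as a block. T and NK cells made up a median of 5.04% of the cells in CC079 tumors and of 8.75% to 19.9% in the other strains; their part in these values was not tested. Without CC079 the range of Lag3 fell from 3.26 to 1.60 (adjusted p = 0.19), of Cd96 from 2.95 to 0.37 (1.0), of Cd160 from 2.57 to 1.62 (0.38) and of Lgals9 from 0.63 to 0.47 (0.060), so 4 of the 6 calls ended. The range of Nectin2 fell from 1.18 to 0.34 without CC007 (adjusted p = 0.84) and to 0.63 without pool 7 (0.76). Leaving out pool 1 or 5 also ended the Cd160 call, pool 1, 2 or 5 that of Cd96, pool 1 or 9 that of Lgals9, pool 8 that of Pvr, and pool 4, 8, 9 or 11 or CC080 that of Nectin2. None passed of 7 in regulatory T cells (3.16% of 5256 genes did), 3 in cDC1 (2.58%) or 5 in migratory dendritic cells (6.45%), with 3, 1 and 2 at an unadjusted p under 0.05 in edgeR. Of all genes, 771 of 5256, 883 of 6162 and 992 of 4651 were under it there. Of the wider list, 5 of 14 genes varied in T and NK cells, where 22.9% of all genes did, and 5 of 12 in CTLs (9.25% of all genes), and in both these were Cd200, Cd200r1, Hmgb1, Lgals3 and Pdcd1. Hmgb1 did not pass with pools 1 to 6 or 7 to 12 as a term in T and NK cells (0.44, adjusted p = 0.25) or CTLs (0.74, 0.47), nor with the pools as a block in T and NK cells (0.59, 0.24). Pdcd1 was lost in 17 of 28 alternatives in CTLs, and in T and NK cells without CC079 (0.91, 0.050) or without clusters 3 and 13 (1.19, 0.26). Lgals3 in T and NK cells was lost without pool 9, CC075 or clusters 3 and 13, and its range in CTLs fell from 4.93 to 2.07 without CC079. Cd200 in CTLs was lost without CC001, and Lgals3 there without CC075. The count was 12 of 21 in all cells (43.9% of all genes passed there) and 11 of 20 in macrophages (49.7%), shares near those of all genes. It was 4 of 12 in cDC1 (2.58%), 1 of 9 in regulatory T cells (Lgals3, 3.16%) and 1 of 10 in migratory dendritic cells (Timd4, 6.45%). The Lgals3 call in regulatory T cells was lost without CC079 (1.54, adjusted p = 0.14), without pool 5 (1.98, 0.079) and with at least 50 cells (2.26, 0.051), and the Timd4 call without CC079 (1.47, 0.14). With the pools as a block, 1 of these 12 kept its call in all cells (Pdcd1), 3 of 11 in macrophages (Nectin3, Pdcd1 and Timd4), 4 of 5 in T and NK cells, 1 of 1 in regulatory T cells and 0 of 1 in migratory dendritic cells. With pools 1 to 6 or 7 to 12 as a term 3, 6, 4, 1 and 1 did in the same order, and with the identifier groups 5, 7, 4, 1 and 1. In CTLs and cDC1 the block could not be fitted, and 3 of 5 and 3 of 4 kept their call with either term. Lgals3 encodes galectin-3, a ligand of LAG-3.

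The second question was whether a single dose of aPD1 moved these genes within 48 h. No member passed in either class in any of the 7 cell groups, where 0.0% of genes passed throughout except T and NK cells of non-responders (0.0139%, 1 of 7186). Of 38 member tests in each comparison, 2 in responders and 6 in non-responders had an unadjusted p under 0.05, and DESeq2 called 0 in either. The 2 in responders were 1 of 9 in all cells (590 of 13503 genes) and 1 of 6 in macrophages (707 of 11598). In T and NK cells of non-responders 1 of 7 did (269 of 7186 genes). In all cells of non-responders, 5 of 9 members (Lag3, Tigit, Cd96, Cd226 and Cd160) were at an unadjusted p under 0.05, with log2 differences of -1.55 to -1.11, where 512 of 13503 genes were. T and NK cells made up a median of 7.36% (5.86 to 44.9) of the cells in these isotype tumors and 5.28% (1.66 to 11.5) in the aPD1 tumors. The part of this share was not tested. The difference of the treatment effects between the classes was called for 0 of 38 (0.0% of genes), with 7 at an unadjusted p under 0.05 and 0 in DESeq2. The 7 were 3 of 9 in all cells (897 of 13503 genes) and 1 of 7 in CTLs (253 of 4418). The others were 2 of 5 in regulatory T cells (269 of 3233) and 1 of 6 in macrophages (607 of 11598).

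Nectin2 in macrophages of responders had the lowest p. Its level ran from 1.38 to 5.86 CPM (median 2.47) in 10 isotype and from 1.88 to 8.20 (median 4.07) in 10 aPD1 tumors, a difference of 0.84 ± 0.23 on the log2 scale (adjusted p = 0.66). The non-responder tumors had medians of 3.38 and 2.99, a difference of -0.16 ± 0.23, and the effects differed between classes by 1.00 ± 0.33 (adjusted p = 0.91). These rest on 117 and 266 UMIs in responders, and the groups overlapped. In regulatory T cells Tigit had medians of 463.4 CPM in 6 isotype and 324.2 in 9 aPD1 tumors of responders (-0.63 ± 0.31, adjusted p = 0.76). The 6 isotype tumors are of CC001 and CC002 only, while 2 of the 9 aPD1 tumors are of CC075, and without CC075 the difference was -0.39 ± 0.30. Tigit had medians of 280.5 and 386.2 in 7 isotype and 8 aPD1 tumors of non-responders (0.33 ± 0.31). Cd226 there had medians of 48.1 and 72.8 in responders and 55.4 and 41.7 in non-responders, with effects that differed by 1.62 ± 0.67 (adjusted p = 0.58), and by 1.23 ± 0.64 without CC075. Lag3, Havcr2 and Cd160 in T and NK cells moved by -0.07 ± 0.27, 0.12 ± 0.23 and 0.10 ± 0.25 with aPD1 in responders, each by less than its SE.

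TIGIT and CD226 compete for the same ligands, so the ratio of their counts was compared within tumors. The log2 ratio of Tigit to Cd226 in CTLs was 0.02 ± 0.80 (SD, n = 9) in responder isotype, -0.04 ± 0.61 (n = 10) in responder aPD1, -0.09 ± 0.72 (n = 6) in non-responder isotype and -0.66 ± 0.79 (n = 4) in non-responder aPD1 tumors. In regulatory T cells it was 3.03 ± 0.72 (n = 6), 2.01 ± 1.50 (n = 9), 2.04 ± 1.72 (n = 7) and 2.75 ± 1.12 (n = 8) in the same order, above the value of the CTLs in each group on average. The groups differ in strains there: the 2 CC075 tumors, at -0.75 and 0.50, are the lowest of the responder aPD1 group, which stood at 2.62 ± 0.96 (n = 7) without them, and no CC075 tumor is in the responder isotype group. The ratio also differed by library. CC080 tumors stood at 0.86 and 0.60 in pool 11, against 2.27 to 3.85 in pools 3 and 4. Other tumors of pools 7 to 12 were not low, with CC001 at 3.50 and 2.46 in pool 12, and CC036 ran from -0.84 to 3.43. CC075 occurs only in pools 7 to 12, and the part of strain and pool was not tested. The share of thinned CTLs with at least 2 of Lag3, Havcr2 and Tigit was 10.5% ± 2.91 (n = 9), 11.8% ± 3.19 (n = 10), 13.1% ± 7.24 (n = 5) and 12.7% ± 6.62 (n = 4). None of 15 two-sided exact permutation tests on these values, for class, treatment and their interaction, passed after adjustment over the 15 (adjusted p from 0.56 to 0.93). The smallest p any of them allowed was at most 0.0079. For aPD1 in non-responder CTLs it was 0.0048 (ratio) and 0.0079 (share), so neither of these tests could pass alone after the adjustment. In single thinned cells of cluster 8, Tigit was seen in 17.1% of 70 cells with a Cd226 UMI and in 30.3% of those without, and in cluster 3 in 14.9% and 15.2%, as a description of pooled cells.

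**Figure D5:**
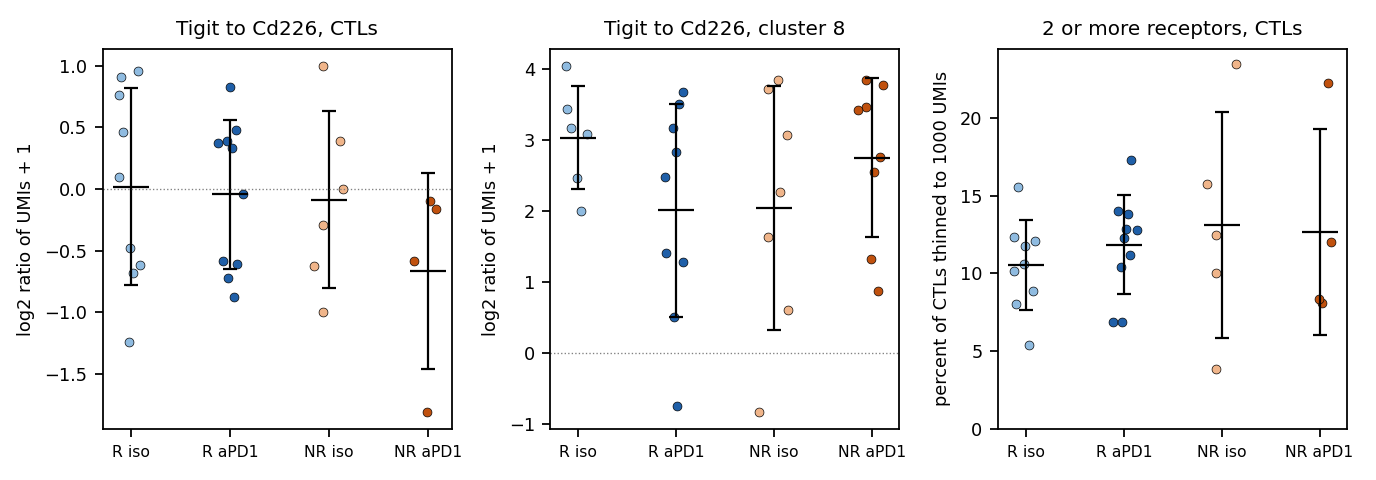
For each tumor with enough cells, the log2 ratio of Tigit to Cd226 counts in CTLs and in regulatory T cells (cluster 8), and the percent of CTLs, thinned to 1000 UMIs, with a UMI of at least 2 of Lag3, Havcr2 and Tigit, by class (R, NR) and treatment; bars are the mean ± SD. The ratio lies near 0 in CTLs and mostly above 0 in regulatory T cells, and the 4 groups overlap in each panel.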

How the data were processed

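Single-cell RNA sequencing with 10x 5′ chemistry was performed on hashtagged tumors, 4 per library. Per the study's methods and the labels, the authors aligned reads with Cell Ranger to GRCm38 (mm10) with GENCODE vM23, assigned hashtags, filtered cells and clustered them with Seurat (5.0.1). For the clustering, the authors corrected for the processing date of the libraries with harmony. The deposited values are raw UMI counts per gene and cell, and the deposited cell table gives pool, strain, treatment, animal, hashtag and cluster. The treatment of doublets was not given in the sources used here, and no doublet caller was run.

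Counts were summed per tumor (pool, strain and treatment) and cell group, keeping tumors with at least 20 cells of the group, and scaled to CPM. All genes that passed filterByExpr were fitted with edgeR 4.0.16 (TMM, quasi-likelihood F test, Benjamini-Hochberg over all genes tested, threshold 0.05) in R 4.3.3. The class, treatment and interaction tests used the classed tumors, with a mean for each class and treatment; the strain test used all 8 strains with treatment as a covariate. SE is of the log2 fold change. Nothing in the labels says more of the hosts than strain, sex and age range, so p-values measure the spread between tumors. Thinning drew 1000 UMIs from each cell and left out shallower cells. Ratios used log2 of counts plus 1, compared by exact permutation tests over all group assignments with numpy 2.4.6. Scripts were tested on simulated data.

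Pools pair tumors, since the labels state that 4 specimens share a library. Deviations of tumors from their group means correlated with a median of 0.183 within pools and -0.012 between pools in macrophages (72 and 1006 pairs), and 0.135 and -0.007 in T and NK cells. The fit with the pool as a block is given beside the members' calls it changed, and for the wider list as counts. Alternatives were DESeq2 1.42.0, other scaling, no filter on low counts, at least 50 cells, pools 1 to 6 or 7 to 12 as a term and each alone, the pool block, counts per strain, and leaving out a pool, a strain, small tumors or the shared animal; without cluster 12, without clusters 3 and 13, other macrophage sets, the identifier groups, tumors with at least 20 CTLs and each pool left out were chosen after seeing the data. The 9 members, the 23 other pathway genes, the marker lists and the rule for nearest genes (the 3 highest correlations per member) were chosen with earlier results of these data known.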

Additional observations from a re-analysis of the deposited data

Results flagged for a closer look

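In 60 groups of 4 to 10 tumors, 4 held a tumor far from the others by Dixon's criterion, and chance alone marks about 1 in 20 groups. Cd160 in T and NK cells of non-responder aPD1 tumors reached 141.5 CPM in the CC079 tumor of pool 1, next to 58.7 in the nearest tumor, from 11 UMIs in 28 cells. Lag3 in T and NK cells of non-responder isotype tumors reached 343.7 CPM in the CC036 tumor of pool 8 (374 cells, 368 UMIs), next to 161.3. The same tumor had 15.4 CPM of Lag3 in its macrophages (13 UMIs in 256 cells), next to 4.95. Tigit in T and NK cells of responder aPD1 tumors reached 306.2 CPM in the CC001 tumor of pool 1 (202 cells, 229 UMIs), next to 204.0.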

How the results depend on the processing

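Of the counts of called members, 0 for aPD1 within a class was kept in each cell group and alternative run. The counts in alternatives were not set beside the share of all genes called there. A moved count may therefore reflect a change over all genes and not in the members alone. In T and NK cells the class count of 2 became 0 with counts summed per strain, 0 in pools 7 to 12 alone, 0 without clusters 3 and 13, 0 in tumors with at least 20 CTLs, 1 without cluster 12, 1 without the 2 tumors of 1 animal identifier, 4 with the pools as a replicate block, 4 with the identifier groups, and 0 to 4 with a pool or strain left out. In all cells the class count of 0 was 1 with DESeq2 (Cd160), 1 with the identifier groups (Cd160) and 0 to 1 with one left out, and in macrophages it was 1 with the identifier groups (Havcr2). The strain counts moved as follows. In T and NK cells the 7 became 3 with pools 1 to 6 or 7 to 12 as a term, 4 with the identifier groups, 4 with the replicate block, 2 without clusters 3 and 13 and 3 to 8 with one left out. In all cells the 6 became 3 with that term, 2 with the identifier groups, 2 with the block and 2 to 7 with one left out. In CTLs the 2 became 1 with at least 50 cells, 1 with that term, 1 with the identifier groups, 1 without the shared animal, 1 without tumors of under 500 cells and 0 to 3 with one left out. In macrophages the 3 became 0 with that term, 1 with the identifier groups (Lgals9), 0 with the block and 1 to 3 with one left out. With no filter on low counts, the strain count of 0 became 3 in regulatory T cells (Cd226, Lag3 and Tigit), 1 in cDC1 (Cd226) and 2 in migratory dendritic cells (Havcr2 and Lgals9), and the interaction count in regulatory T cells became 1 (Cd226). With one left out the strain count was 0 to 1 in regulatory T cells and 0 to 1 in cDC1. For the members, no other count moved by over 1.5 times with the block.

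Ratios and shares, none of which passed adjustment, changed sign as follows. The Tigit to Cd226 difference between classes with isotype in CTLs (0.11) was -0.45 with the pools as a block, -0.12 with at least 50 cells, -0.12 in pools 1 to 6, and -0.17 to 0.36 with one left out. With aPD1 in responders (-0.06) it was 0.14 with at least 50 cells, 0.24 in pools 1 to 6, and -0.25 to 0.32 with one left out. The interaction (0.54) was -0.37 in pools 7 to 12. The share of CTLs with at least 2 receptors differed by class with isotype by -2.57 percentage points, 1.31 in pools 1 to 6, and -4.78 to 0.74 with one left out. With aPD1 the class difference (-0.82) was 7.57 when thinned to 2000 UMIs, and -3.43 to 1.79 with one left out. The aPD1 effect in responders (1.31) was -1.23 in pools 1 to 6 and 3.98 in pools 7 to 12 (unadjusted exact permutation p = 0.024). In non-responders (-0.44) it was 2.14 with the block, 0.257 in pools 1 to 6, and -0.44 to 0.257 with one left out. The interaction (-0.94) was 0.21 in pools 7 to 12, 10.6 at 2000 UMIs, and -2.82 to 0.95 with one left out. The causes were not tested.

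The 20-cell minimum left 4 non-responder aPD1 tumors for CTLs, which limits their class comparison. Class fits in CTLs with at least 50 cells, strain fits with the block in CTLs and cDC1, and class and strain fits with at least 50 cells in cDC1 and migratory dendritic cells could not be fitted.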
